A study of Homo sapiens with 6 samples.

Results

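The 8 genes that encode the laminin- and collagen-binding integrin subunits were examined in RNA-seq libraries of H2087-LCC cells. ITGA3, ITGA6, ITGA7 and ITGB4 encode subunits of the laminin receptors, and ITGA1, ITGA2, ITGA10 and ITGA11 encode the α subunits of the collagen receptors. The rule takes the genes by symbol and sets no threshold on their values, and all 8 were found among the 21293 genes of the table. H2087-LCC is a latency competent cancer cell population that was selected in mice from a human lung adenocarcinoma (LUAD) cell line. The cells were incubated for 3 days with SB505124 (SB; 2.5 μM), which blocks the kinase of the type I TGFβ receptor, or for 3 days or 7 days with 100 pM TGFβ, with 2 libraries in each of the 3 groups. According to the study, the libraries within a group are technical replicates, so SDs, standard errors and p-values measure only the spread between these samples. No SB library was taken at 7 days, and the comparison of 7 days of TGFβ with SB therefore also holds a difference in time in culture. Both comparisons with SB use the same SB libraries.

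Integrins are heterodimers of an α and a β subunit that link extracellular matrix to the actin cytoskeleton or, for α6β4, to keratin filaments at hemidesmosomes. The α3, α6 and α7 subunits pair with β1 to bind laminins, the main adhesive proteins of basement membranes, and α6 also pairs with β4. The α1, α2, α10 and α11 subunits carry an inserted domain that recognizes triple-helical collagen, and each pairs with β1 only. In lung epithelium, α3β1 and α6β4 anchor cells to the basement membrane, while α11 is best known from fibroblasts and α10 from cartilage. TGFβ drives epithelial–mesenchymal transition (EMT), in which cells exchange epithelial contacts for a matrix-rich environment.

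Values are normalized read counts, which the authors made from gene read counts scaled by library size and rounded to whole numbers. They summed to between 34306283 and 36340734 per library, and 1 read was worth between 0.896 and 1.1 normalized counts. Log2 fold changes come from limma on log2(normalized read count + 1), fitted to 14395 genes whose mean over the 6 libraries reached 10, and a gene was called when its Benjamini-Hochberg adjusted p was under 0.05. A permutation test of 2 libraries against 2 cannot give a p under 0.333, so no such test was made. As a check of the treatment, SMAD7, a feedback inhibitor that TGFβ signalling induces, was at 112 and 79 with SB and between 747 and 916 in the TGFβ libraries. Of the 5 epithelial markers, the keratin genes KRT8, KRT18 and KRT19 and EPCAM, which encodes an adhesion molecule, were expressed in every library, and CDH1, which encodes E-cadherin, was at 371 and 635 with SB and between 9 and 28 with TGFβ. CDH1, EPCAM and KRT18 fell at 7 days, with log2 fold changes of -5.54, -1.62 and -0.56, and KRT8 and KRT19 were not called. None of the 5 leukocyte markers reached a mean of 10. Of the 4 fibroblast markers, LUM was at 0 in every library, DCN did not exceed 1, COL1A2 did not exceed 5 and PDGFRA lay between 8 and 16. Of the 4 endothelial markers, CDH5 and VWF did not exceed 20, PECAM1 lay between 36 and 67 and KDR between 26 and 225. In these bulk libraries, fewer cells with a transcript and less of it per cell cannot be told apart.

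The receptors did not move as 1 block (plots of normalized read counts by library). At 3 days, 5 of the 8 members were called: ITGA3, ITGA6, ITGA2 and ITGA10 rose and ITGB4 fell, against 29.0% of all genes tested that were called, 14.9% as higher and 14.0% as lower. After 7 days, ITGA3, ITGA6, ITGA10 and ITGA11 rose relative to SB and no member fell. These 4 of 8 lie near the share over all genes tested, of which 54.5% were called, 27.7% higher and 26.9% lower. Between 3 days and 7 days of TGFβ, 6 of the 8 changed, against 33.2% of all genes tested. ITGA3, ITGB4, ITGA10 and ITGA11 rose, against 17.0% of all genes called as higher, and ITGA6 and ITGA2 fell, against 16.2% called as lower. The median log2 fold change of the 8 genes was 0.53 at 3 days and 0.56 at 7 days relative to SB and 0.65 from 3 days to 7 days. Over all genes tested these medians were -0.022, -0.00081 and 0.019. The libraries of the groups did not overlap for 6, 7 and 8 of the 8 genes in the same order of comparisons, against 63.2%, 77.5% and 69.1% of all genes tested.

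**Figure D1:**
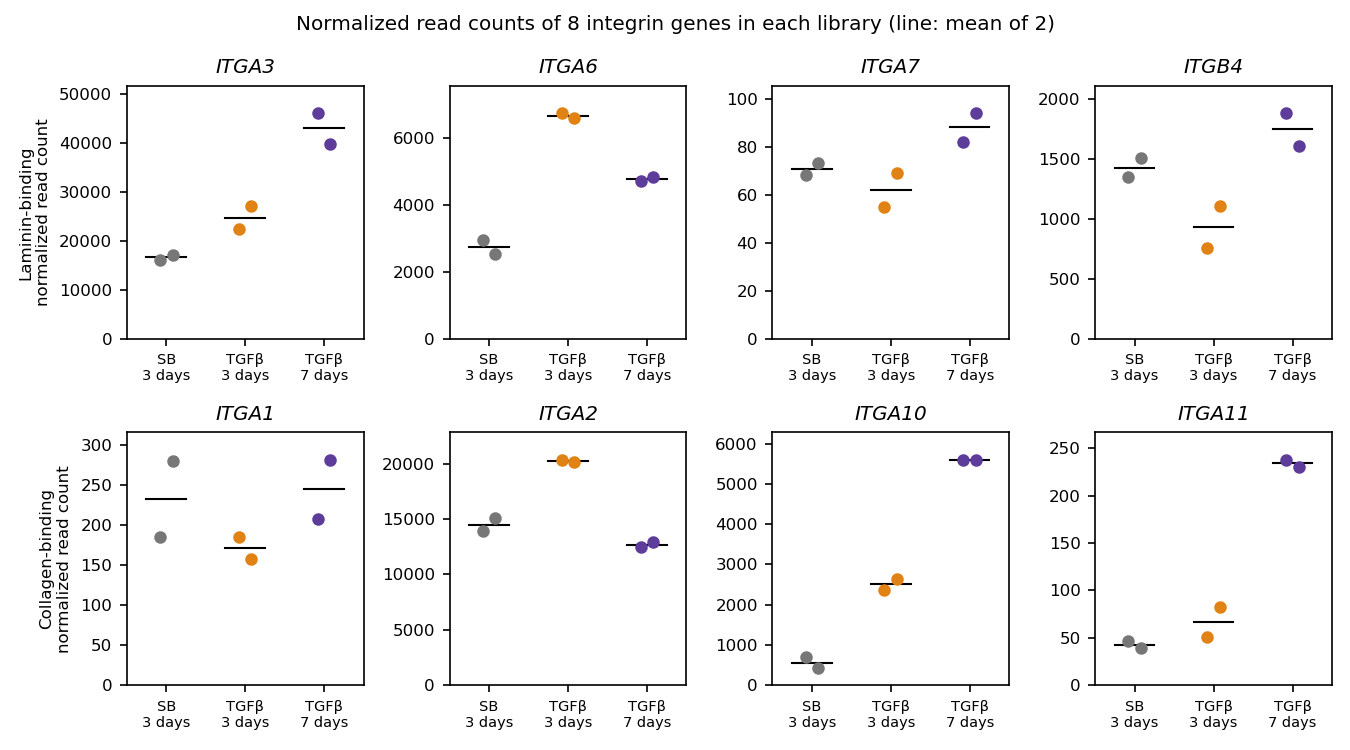
Normalized read counts (y axes, from 0) of the 4 laminin-binding genes (top) and the 4 collagen-binding genes (bottom) in the SB, TGFβ 3-day and TGFβ 7-day groups (x axes). Each point is 1 library and each line the mean of 2; ITGA3 and ITGA10 are higher at each step, ITGA6 and ITGA2 are highest at 3 days, ITGB4 is lowest at 3 days, and ITGA11 stands apart at 7 days.

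ITGA3 encodes the α3 subunit, a receptor for laminin-332 and laminin-511 (GRCh37, chr17:48133332-48167845, plus strand). Its normalized read count was 16063 and 17207 with SB, 22358 and 27113 after 3 days of TGFβ, and 46177 and 39866 after 7 days. Every 7-day library lay above every 3-day library, and these lay above both SB libraries. ITGA3 rose by a log2 fold change of 0.57 (SE 0.11) at 3 days (adjusted p = 0.0017) and of 1.37 (SE 0.11) at 7 days (adjusted p = 7.58e-07), with a further rise of 0.80 (SE 0.11) between them (adjusted p = 0.000264). The mean at 7 days, 43022 ± 4463 (SD, n = 2), was 2.59 times that with SB, 16635 ± 809. ITGA3 has a GC content of 61.3%, and the libraries within the TGFβ groups differed along GC content: across 11209 genes, the difference of replicate 1 from replicate 2 had a Spearman rho with GC content of -0.20 with SB, -0.74 at 3 days and 0.73 at 7 days. With a correction of the libraries for GC content and length, ITGA3 was higher by 0.55 at 3 days and 1.10 at 7 days, and the rise between them was 0.56 (adjusted p = 0.000325).

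ITGA6 encodes the α6 subunit, which pairs with β1 or with β4 (GRCh37, chr2:173292082-173371187, plus strand). It was at 2943 and 2545 with SB, 6760 and 6603 after 3 days of TGFβ, and 4727 and 4847 after 7 days. The groups did not overlap, and the 3-day libraries were the highest. ITGA6 rose by 1.29 (SE 0.091) on the log2 scale at 3 days (adjusted p = 8.39e-07), stood 0.81 (SE 0.091) above SB at 7 days (adjusted p = 1.77e-05), and fell by 0.48 (SE 0.091) from 3 days to 7 days (adjusted p = 0.00235). The 3-day mean was 2.43 times that with SB and the 7-day mean 1.74 times.

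ITGB4 encodes β4, the hemidesmosomal partner of α6, with a long cytoplasmic tail that binds plectin (GRCh37, chr17:73717408-73753899, plus strand). Its normalized read count was 1351 and 1506 with SB, 756 and 1107 after 3 days of TGFβ, and 1884 and 1610 after 7 days. The 3-day libraries were the lowest, although they differed from each other by more than the SB libraries did, and both 7-day libraries lay above SB. ITGB4 fell by 0.64 (SE 0.16) on the log2 scale at 3 days (adjusted p = 0.01) and rose by 0.93 (SE 0.16) from 3 days to 7 days (adjusted p = 0.00134). At 7 days the difference from SB was 0.29, with a 95% confidence interval from -0.058 to 0.63 (adjusted p = 0.144). The call at 3 days was lost without SB replicate 2 (log2 fold change -0.56, adjusted p = 0.073) and without 3-day replicate 1 (-0.37, adjusted p = 0.101), and also with no filter on low values (adjusted p = 0.0936) and with limma without the trend (adjusted p = 0.0824). The GC content of ITGB4 is 63.6%, and with the correction for GC content and length the values were -0.67 at 3 days (adjusted p = 0.000377), -0.019 at 7 days and 0.65 between them (adjusted p = 0.000565).

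The level of ITGA6 per kb of exon was set against that of ITGB4, with which it shares the α6β4 receptor. The ratio was 2.21 and 1.71 with SB, 9.05 and 6.04 at 3 days, and 2.54 and 3.05 at 7 days. The 3-day libraries stood above all others, with a mean of 7.54 ± 2.13 (SD, n = 2) against 1.96 ± 0.35 with SB and 2.79 ± 0.359 at 7 days. A ratio within a library does not depend on how the library was scaled. It can depend on GC content, which is 42.5% for ITGA6 and 63.6% for ITGB4. The libraries within the TGFβ groups differed along GC content (Spearman rho -0.74 at 3 days and 0.73 at 7 days). The ratio was not corrected for GC content, and no test was made on it.

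ITGA7, which encodes the laminin receptor subunit of muscle, was low in all libraries (GRCh37, chr12:56078352-56110188, minus strand). It was at 68 and 73 with SB, 55 and 69 at 3 days, and 82 and 94 at 7 days. The SB and 3-day libraries overlapped, and the 7-day libraries were the highest. No comparison was called, and the 95% confidence intervals on the log2 scale ran from -0.67 to 0.29 at 3 days, from -0.17 to 0.80 at 7 days and from 0.02 to 0.99 between them. At this depth the counting error alone was between 10.2% and 13.5% of its value. The gene shares 119 bases with BLOC1S1 and 44 bases with METTL7B on the opposite strand, and the library kit did not mark strand, so reads from these bases cannot be assigned to either gene.

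ITGA2 encodes α2, the collagen receptor subunit of epithelial cells and platelets (GRCh37, chr5:52285170-52390609, plus strand). Its normalized read count was 13880 and 15080 with SB, 20374 and 20164 after 3 days of TGFβ, and 12440 and 12954 after 7 days. The 3-day libraries were the highest and the 7-day libraries the lowest, with no overlap between groups. ITGA2 rose by 0.49 (SE 0.079) on the log2 scale at 3 days (adjusted p = 0.000647) and fell by 0.68 (SE 0.079) from 3 days to 7 days (adjusted p = 0.000122). Relative to SB, the value at 7 days differed by -0.19 (SE 0.079, 95% confidence interval -0.36 to -0.016), which did not pass the threshold (adjusted p = 0.0611). It passed with equal library totals (-0.24, adjusted p = 0.0218), with the correction for GC content and length (-0.37, adjusted p = 0.000409) and without SB replicate 1 (-0.25, adjusted p = 0.0255).

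ITGA10 encodes α10, a collagen receptor subunit of cartilage, and had the highest fold change of the 8 genes in each comparison with SB (GRCh37, chr1:145524969-145543868, plus strand). It was at 694 and 423 with SB, 2372 and 2641 after 3 days of TGFβ, and 5582 and 5602 after 7 days. The groups were far apart, and the libraries of the SB group were the ones that differed most from each other. ITGA10 rose by 2.21 (SE 0.17) on the log2 scale at 3 days (adjusted p = 2.13e-06) and by 3.37 (SE 0.17) at 7 days (adjusted p = 2.83e-08), and the groups at 7 days and 3 days differed by 1.16 (SE 0.17, adjusted p = 0.000641). The mean rose from 558 ± 192 (SD, n = 2) with SB to 2506 ± 190 and then 5592 ± 14.1, which are 4.49 and 10 times the mean with SB. With each library left out in turn, the log2 fold change at 7 days lay between 3.01 and 3.72.

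ITGA11 encodes α11, a receptor for fibrillar collagen (GRCh37, chr15:68588870-68724502, minus strand). Its normalized read count was 46 and 39 with SB, 51 and 82 after 3 days of TGFβ, and 238 and 230 after 7 days. The 3-day libraries lay above SB but spread widely, and the 7-day libraries stood well above both groups. The difference at 3 days was 0.60 on the log2 scale (95% confidence interval 0.064 to 1.13) and was not called (adjusted p = 0.0881), and it moved to 0.94 (adjusted p = 0.0241) without 3-day replicate 1 and to 0.26 (adjusted p = 0.549) without 3-day replicate 2. ITGA11 rose by 2.44 (SE 0.24) at 7 days relative to SB (adjusted p = 7e-06) and by 1.84 (SE 0.24) from 3 days to 7 days (adjusted p = 0.000289). Its 7-day mean was 5.51 times that with SB. Of the 4 fibroblast markers, DCN and LUM were at 0 or 1 in the same libraries, COL1A2 was at 0 and 2 with SB, 4 and 5 at 3 days, and 4 and 0 at 7 days, and PDGFRA lay between 8 and 16 with no comparison called.

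ITGA1, which encodes the α1 subunit that prefers collagen IV, was not called in any comparison (GRCh37, chr5:52083750-52255039, plus strand). It was at 185 and 280 with SB, 185 and 158 at 3 days, and 208 and 282 at 7 days. Both TGFβ groups overlapped with SB, and the groups at 3 days and 7 days did not overlap with each other. The 95% confidence intervals on the log2 scale were -0.89 to 0.066 at 3 days, -0.39 to 0.57 at 7 days and 0.023 to 0.98 between them (adjusted p = 0.0985). Without SB replicate 1 the value at 3 days was -0.71 and was called (adjusted p = 0.0388), and the direction at 7 days turned to -0.21. The direction at 7 days also turned without 7-day replicate 2 (-0.13). ITGA1 shares 499 bases with PELO on the same strand, so its reads there are uncertain.

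**Figure D2:**
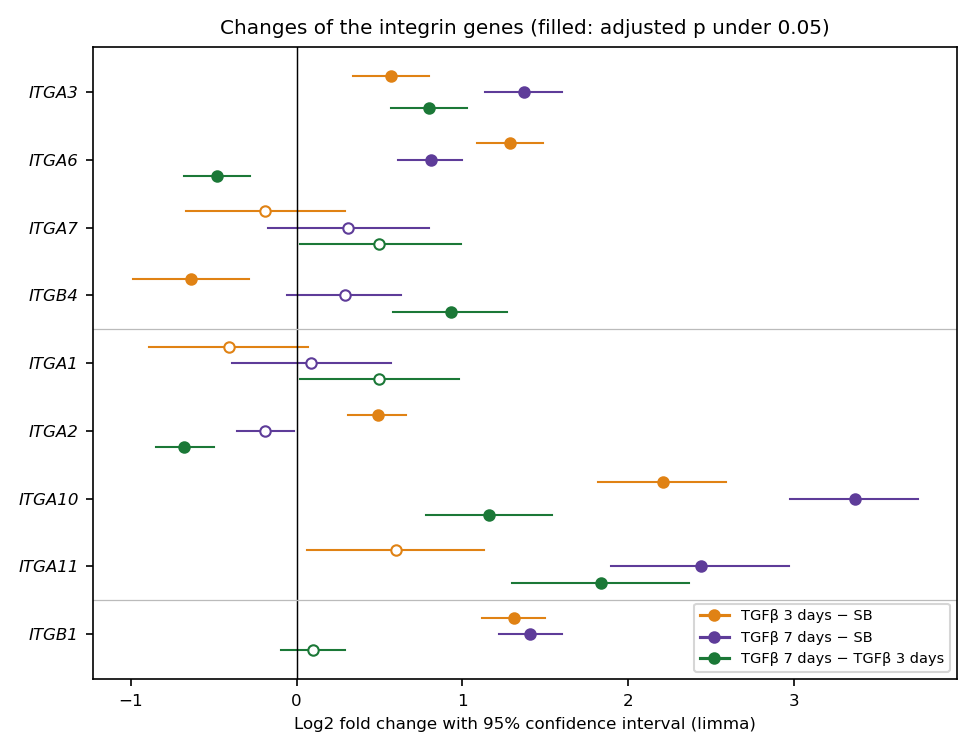
Log2 fold changes from limma (x axis) of the 8 genes and of ITGB1 for TGFβ 3 days relative to SB (orange), TGFβ 7 days relative to SB (purple) and 7 days relative to 3 days (green). Bars are 95% confidence intervals and filled points passed an adjusted p of 0.05; ITGA10 lies farthest to the right at 3 days and 7 days, and the green points of ITGA6 and ITGA2 lie to the left of 0 while those of ITGA3, ITGB4, ITGA10 and ITGA11 lie to the right.

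The region before the gene start is shown for the collagen receptor genes that moved most and in opposite directions from 3 days to 7 days. RefSeq (GRCh38.p14) gave such a region for 5 of the 8 members. ITGA3, ITGA7 and ITGB4 had no entry. The 250 bases before the start were searched on both strands for CAGAC (the core SMAD element), GTCTAGAC (the SMAD palindrome), TGANTCA (AP-1) and CACCTG (an E-box). These letters occur in 38.0%, 0.182%, 6.57% and 17.5% of 35116 RefSeq regions of the same length. The sequences below run 5′ to 3′ on the strand of the gene, with matches in capitals. ITGA10 (chr1:145910051-145910300, minus strand in this build, opposite to GRCh37) holds 1 core SMAD element 129 bases before the start, ITGA11 (chr15:68432164-68432413, minus strand) holds 1 E-box 130 bases before it, and ITGA2 (chr5:52989102-52989351, plus strand) holds none of the 4.
ITGA10: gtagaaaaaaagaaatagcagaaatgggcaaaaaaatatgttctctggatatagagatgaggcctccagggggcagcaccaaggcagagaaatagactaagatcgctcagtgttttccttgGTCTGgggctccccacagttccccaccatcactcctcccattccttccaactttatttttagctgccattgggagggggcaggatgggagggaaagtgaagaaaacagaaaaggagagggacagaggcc
ITGA11: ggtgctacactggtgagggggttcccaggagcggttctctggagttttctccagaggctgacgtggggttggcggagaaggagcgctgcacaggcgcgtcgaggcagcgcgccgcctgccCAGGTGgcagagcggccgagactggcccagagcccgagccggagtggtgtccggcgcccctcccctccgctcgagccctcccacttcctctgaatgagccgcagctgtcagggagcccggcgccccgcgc
ITGA2: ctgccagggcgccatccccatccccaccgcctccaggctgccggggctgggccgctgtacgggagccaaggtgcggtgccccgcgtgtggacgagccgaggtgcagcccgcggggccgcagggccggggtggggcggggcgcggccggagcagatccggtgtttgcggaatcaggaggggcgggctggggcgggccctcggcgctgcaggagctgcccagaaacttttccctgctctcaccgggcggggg
ITGA1 held 1 core SMAD element, and of the 2 regions listed for ITGA6, 1 held 2 E-boxes and the other none of the 4 motifs. A match is a description of the letters, and factor binding was not measured in these libraries. The GC content of these regions was 48.4% for ITGA10, 71.2% for ITGA11 and 76.4% for ITGA2.

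ITGB1 encodes β1, the partner of all 7 α subunits. It was at 21386 and 18868 with SB, 51900 and 47743 at 3 days, and 51760 and 54880 at 7 days. Both TGFβ groups lay above SB and overlapped with each other. ITGB1 rose by 1.31 (SE 0.088) on the log2 scale at 3 days (adjusted p = 5.88e-07) and by 1.41 (SE 0.088) at 7 days (adjusted p = 1.23e-07). The difference between 3 days and 7 days was 0.10, with a 95% confidence interval from -0.094 to 0.29 (adjusted p = 0.416).

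To compare the levels of different subunits, normalized read counts were divided by the summed exon length of each gene. With SB, ITGA2 was at 1834 ± 107 (SD, n = 2) and ITGA3 at 1697 ± 82.5 per kb, with the nearest libraries at 1758 for ITGA2 and 1755 for ITGA3. ITGA6 followed at 411 ± 42.1 and ITGB4 at 211 ± 16.2, and then ITGA10 at 89.5 ± 30.7, ITGA1 at 12.5 ± 3.62, ITGA7 at 7.76 ± 0.389 and ITGA11 at 3.91 ± 0.456. After 7 days of TGFβ the order was ITGA3 at 4389 ± 455, ITGA2 at 1608 ± 46, ITGA10 at 896 ± 2.27, ITGA6 at 717 ± 12.7, ITGB4 at 258 ± 28.7, ITGA11 at 21.5 ± 0.521, ITGA1 at 13.2 ± 2.82 and ITGA7 at 9.69 ± 0.935. The nearest neighbours in this order were ITGA1, with libraries at 11.2 and 15.2, and ITGA7, at 9.03 and 10.4. At 3 days ITGA2 was at 2567 ± 18.8 and ITGA3 at 2524 ± 343, ITGA6 was at 1000 ± 16.6, ITGA10 at 402 ± 30.5 and ITGB4 at 138 ± 36.7. Parts of the order depended on the length used. With the longest transcript of each gene, ITGA3 stood above ITGA2 with SB (3036 ± 148 against 1846 ± 108) and at 3 days (4515 ± 614 against 2584 ± 18.9), so these 2 genes have no order that holds for both lengths in these groups. At 7 days ITGA11 was then at 23.4 and 22.6, ITGA1 at 19.4 and 26.3 and ITGA7 at 19.8 and 22.7, which overlap. ITGA10 was above ITGA6 and ITGB4 at 7 days with both lengths, at 1090 ± 2.76 against 823 ± 14.6 and 296 ± 32.9 with the longest transcript. With the summed exon length, the summed level of the 7 α subunits was 4055 ± 121 per kb with SB, 6515 ± 340 at 3 days and 7654 ± 391 at 7 days.

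Among the collagen-binding α subunits, ITGA2 made up 94.5% ± 1.65 (SD, n = 2) of the summed level per kb with SB, 86.0% ± 0.995 at 3 days and 63.3% ± 0.551 at 7 days. The share of ITGA10 was 5.90% and 3.39% in the SB libraries, 12.8% and 14.1% at 3 days, and 35.7% and 34.9% at 7 days. ITGA11 and ITGA1 each stayed below 1% in every library. Among the laminin-binding α subunits, ITGA3 held 80.2% ± 2.35 with SB, 71.3% ± 3.1 at 3 days and 85.7% ± 1.5 at 7 days, and ITGA6 held 19.4% ± 2.37, 28.5% ± 3.11 and 14.1% ± 1.46. The collagen-binding subunits together made up 47.8% ± 0.547 of all 7 α subunits with SB, 45.9% ± 2.2 at 3 days and 33.2% ± 2.36 at 7 days. The 7-day libraries, at 31.6% and 34.9%, lay below all 4 others, of which the lowest was 44.3%. These shares carry no test, and they depend on the length used: with the longest transcript of each gene the ITGA10 share at 7 days was 39.6% and the collagen-binding share 24.1%.

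**Figure D3:**
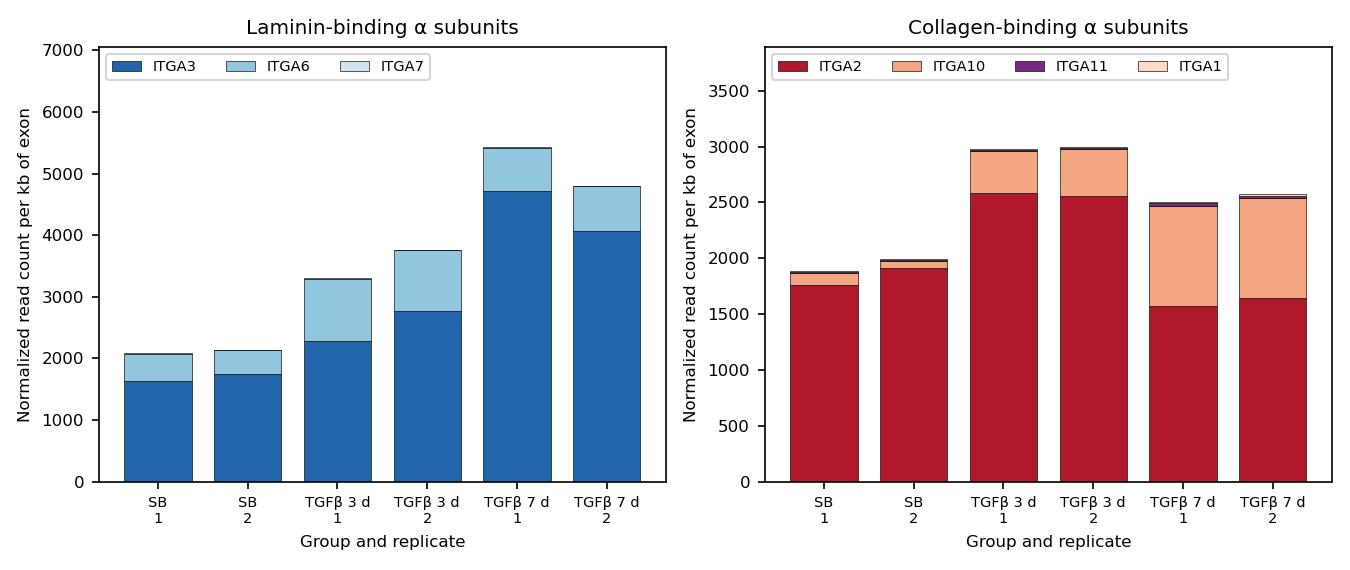
Normalized read count per kb of exon (y axes, from 0) of the laminin-binding (left) and collagen-binding (right) α subunit genes, stacked by gene, in each of the 6 libraries (x axes). ITGA3 makes up most of the left bars in every library, and on the right the ITGA10 section grows from 3.39% and 5.90% of the bar with SB to 34.9% and 35.7% after 7 days of TGFβ.

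Hemidesmosome and tetraspanin partners of these receptors were then counted in the same fit. Of 9 hemidesmosome and tetraspanin genes, 4 rose and 2 fell at 3 days, and 6 rose and 2 fell at 7 days, when the median of the list was 0.68 on the log2 scale. Of all genes tested, 29.0% were called at 3 days and 54.5% at 7 days. CD82, a tetraspanin that associates with α3β1 and α6β1, went from 182 and 168 with SB to 574 and 693 at 3 days and 1761 and 1548 at 7 days, a rise of 3.23 (SE 0.13) on the log2 scale (adjusted p = 4.31e-09). COL17A1, the hemidesmosomal collagen XVII, rose by 1.81 (SE 0.19, adjusted p = 8.24e-06). In contrast, CD9, another tetraspanin partner, went from 3637 and 3722 to 2510 and 2440 and then 1815 and 1765, and fell by 1.04 (SE 0.085, adjusted p = 1.29e-06). TSPAN4 was called lower at 7 days (-0.48, adjusted p = 0.0463), a call lost without 7-day replicate 2 (-0.26, adjusted p = 0.351), without SB replicate 1 (adjusted p = 0.157) and without SB replicate 2 (adjusted p = 0.117). It was also lost with no filter (adjusted p = 0.185), with upper quartile scaling (adjusted p = 0.0923) and with limma without the trend (adjusted p = 0.154).

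Of 20 genes for integrin activation and the adhesion plaque, 11 rose and none fell at 3 days, and 11 rose and 3 fell at 7 days, with medians of 0.47 and 0.37, where 29.0% and 54.5% of all genes were called. TNS1, which encodes tensin 1, a link from β subunit tails to actin, went from 19 and 13 with SB to 438 and 528 at 3 days and 2316 and 1986 at 7 days, a rise of 7.00 (SE 0.19) on the log2 scale (adjusted p = 1.28e-10). TLN2, one of the 2 talin genes whose products activate integrins, rose by 2.25 (SE 0.12, adjusted p = 4.68e-08). PARVB, encoding β-parvin, fell by 0.69 (SE 0.12, adjusted p = 0.000374) at 7 days. BCAR1, encoding the adhesion adaptor p130Cas, was called lower by -0.58 (adjusted p = 0.0115), and the call was lost without 7-day replicate 2 (-0.37, adjusted p = 0.137), without SB replicate 1 (-0.56, adjusted p = 0.0637), with no filter (adjusted p = 0.0828) and with limma without the trend (adjusted p = 0.0693). The third gene called lower at 7 days, named after its values were seen, was ITGB1BP1 (-0.35), whose product binds the β1 tail.

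Of 10 non-integrin receptors for laminin or collagen, 8 were tested. At 3 days 2 rose and 1 fell, and at 7 days 3 rose and 1 fell, which lies near the 29.0% and 54.5% of all genes called. DDR1, a collagen receptor tyrosine kinase, was at 460 and 643 with SB, 654 and 786 at 3 days, and 2410 and 2227 at 7 days, and rose by 2.09 (SE 0.15) at 7 days (adjusted p = 5.01e-07). MRC2, an endocytic collagen receptor, rose by 2.30 (SE 0.27, adjusted p = 2.46e-05). RPSA, the ribosomal protein gene also known as the laminin receptor, fell by 0.74 (SE 0.082, adjusted p = 1.46e-05). Among 17 other integrin subunits, 10 were tested, of which 5 rose and 2 fell at 3 days (29.0% of all genes called) and 5 rose and 1 fell at 7 days, near the 54.5% of all genes. ITGB6 went from 13 and 22 with SB to 1165 and 1374 at 7 days, and ITGB3 from 272 and 386 to 4225 and 4184, with log2 fold changes of 6.14 (SE 0.21, adjusted p = 1.05e-09) and 3.69 (SE 0.14, adjusted p = 2.27e-09). Both encode partners of αV, which binds fibronectin and latent TGFβ. The gene that fell at 7 days, named after its values were seen, was ITGB2, from a mean of 64.5 ± 2.12 (SD, n = 2) with SB to 4 ± 4.24 at 7 days.

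The genes of the ligands were counted in the same way. Of 12 laminin chains, 10 were tested. At 3 days 4 rose and 1 fell, and at 7 days 6 rose, the median of the list being 0.38 on the log2 scale. The 6 of 10 at 7 days lie near the 54.5% of all genes called, and 29.0% were called at 3 days. LAMA3 and LAMB3 encode chains of laminin-332, a ligand of α3β1 and α6β4. LAMA3 was at 464 and 609 with SB, 1036 and 1032 at 3 days, and 1132 and 1141 at 7 days, and rose by 1.09 (SE 0.13) at 7 days (adjusted p = 2.79e-05). LAMB3 was at 3972 and 3728, then 10631 and 12887, then 8990 and 7446, and rose by 1.60 (SE 0.11) at 3 days (adjusted p = 8.14e-07) and 1.09 (SE 0.11) at 7 days (adjusted p = 8.98e-06). Between 3 days and 7 days LAMB3 fell by 0.52 on the log2 scale (adjusted p = 0.00505), while LAMA5 and LAMB2, named after their values were seen, rose by 0.99 and 0.37.

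Of 15 collagen chains, 8 were tested, of which 4 rose at 3 days and 6 at 7 days, with none called lower and a median of 1.20 at 7 days, against 29.0% and 54.5% of all genes called. COL5A1, a fibrillar collagen chain, was at 30 and 50 with SB, 508 and 605 at 3 days, and 2770 and 2465 at 7 days, and rose by 6.04 (SE 0.20) on the log2 scale (adjusted p = 7.91e-10). COL6A3, a chain of the microfibrillar collagen VI, was at 58 and 72, then 963 and 1149, then 3017 and 2756, and rose by 5.46 (SE 0.14, adjusted p = 9.61e-11). COL4A1, which encodes the main basement membrane collagen chain and the preferred ligand of α1, did not exceed 3 in any library. Both COL5A1 and COL6A3 also rose from 3 days to 7 days, by 2.23 and 1.45 on the log2 scale. Of the collagen receptor genes, ITGA10 and ITGA11 rose over the same interval, ITGA2 fell by 0.68 (adjusted p = 0.000122) and ITGA1 was not called.

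**Figure D4:**
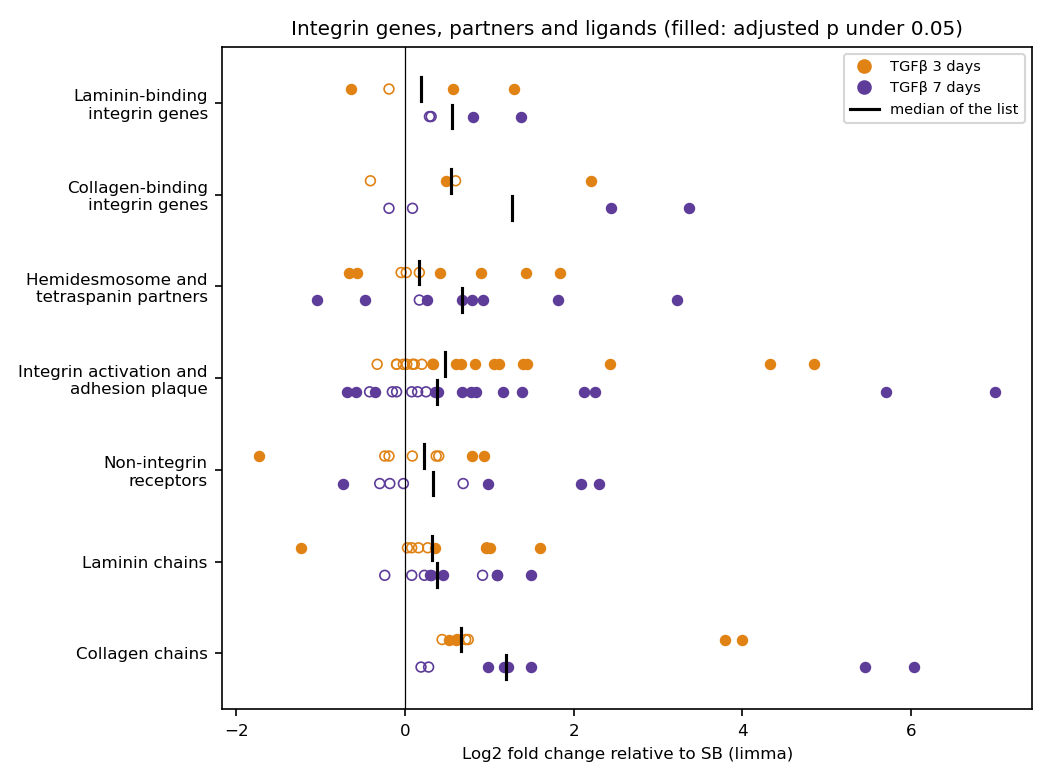
Log2 fold changes relative to SB (x axis) at 3 days (orange) and 7 days (purple) of TGFβ for the tested genes of each list (y axis), with filled points for an adjusted p under 0.05 and a black line at the median of the list. At 7 days the medians of the collagen-binding integrin genes (1.26) and the collagen chains (1.20) lie to the right of the laminin medians. Those are 0.56 for the laminin-binding integrin genes and 0.38 for the laminin chains. No gene lies near 1.26: ITGA2 (-0.19) and ITGA1 (0.089) were not called, and ITGA11 (2.44) and ITGA10 (3.37) were called higher. In each integrin class 2 of 4 genes were called, and all values use the same SB libraries.

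For each member, the genes with the most similar pattern were found by the root mean square distance between log2 values over the 6 libraries, each centred on its mean, among 11388 genes with a mean of at least 100 (11389 for ITGA7, which is not itself among them). ITGA3 was closest to CAPN5 (distance 0.0331) and TIMP1 (0.0528), and ITGA6 to SRRD (0.0608) and ADARB1 (0.0741). ITGB4 lay nearest to the lysosomal protease gene CTSD (0.102) and to LGALS3BP (0.104), and ITGA7 to WDR5B (0.0668) and ANKMY1 (0.0727). Among the collagen receptor genes, ITGA2 was closest to PROSER2 (0.0642), and ITGA1 to ZNF546 (0.114) and DTX3L (0.116). ITGA10 was closest to P4HA3 (0.127), which encodes a subunit of the prolyl hydroxylase of collagen, and to SYT13 (0.168). P4HA3 was at 88 and 60 with SB, 360 and 392 at 3 days, and 667 and 722 at 7 days. ITGA11 had the least close neighbours, FIBCD1 (0.2) and CHST6 (0.224). Counting error reached 16% of the value for ITGA11 in SB replicate 2 and lay between 10.2% and 13.5% for ITGA7. The distances of ITGA11 and ITGA7 include that error. No member was among the nearest genes of another.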

How the data were processed

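RNA-seq was measured in 6 libraries of H2087-LCC cells, 3 groups of 2. The authors aligned paired reads to hg19 with STAR, counted unique alignments on genes with HTSeq 0.6.1p1, scaled the counts by library size and used DESeq2 3.4. The library kit, TruSeq v2, does not mark strand. The deposited values (unit score) are normalized counts rounded to whole numbers, from which read counts of each gene cannot be restored. The value of 1 read was estimated from gaps among low values and gave 32000000 to 40000000 assigned reads per library. These depths cover counting error only. As a median over 11389 genes, the squared difference of the paired libraries was 10.5 (SB), 9.23 (3 days) and 7.82 (7 days) times that of counting alone.

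After transformation to log2(value + 1), limma 3.58.1 (R 4.3.3, trend on mean expression, group as the only term, 3 residual degrees of freedom) was fitted to the 14395 genes whose mean reached 10, with Benjamini-Hochberg adjustment over all genes tested at 0.05. The members and lists were chosen with earlier results of these data known. Named genes were the members, ITGB1, the 2 largest rises and 2 largest falls of each list at 7 days relative to SB among called genes whose mean reached 100, the 2 genes nearest to each member, SMAD7 as a treatment check, and cell type markers. Some genes that the rule names are not reported here. Exon lengths and positions came from GENCODE on GRCh37. Of 21293 symbols, 18435 were current, 1307 older and 1551 not matched.

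The alternatives were a pseudocount of 0.5 or 5, no filter, a minimum mean of 50, 3 other scalings, limma without the trend, only the libraries compared, the replicate number as a block, a correction for GC content and length by loess (span 0.5, 13878 genes), the longest transcript as the length, and each library left out in turn. The block crossed at 7 days was chosen after seeing the data. The steps were tested on simulated data with independent libraries and no differences along GC content, so that test does not cover such differences. Plots were made in Python 3.11.15 (matplotlib 3.10.9).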

Additional observations from a re-analysis of the deposited data

Results flagged for a closer look

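The change relative to SB differed between 7 days and 3 days of TGFβ for 6 of the 8 genes, tested as 7 days against 3 days, in which the shared SB libraries cancel. On the log2 scale the 7-day change exceeded the 3-day change by 0.80 for ITGA3, 0.93 for ITGB4, 1.16 for ITGA10 and 1.84 for ITGA11. For ITGA6 the difference was -0.48 and for ITGA2 -0.68. Each kept its direction and stayed past the threshold in all 18 alternatives, those that leave out 1 library included.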

How the results depend on the processing

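Of 486 values of the members and ITGB1 under the alternatives, 471 kept their direction and their side of the threshold, 7 newly passed it, 4 no longer passed it and 4 reversed. The direction at 7 days relative to SB reversed for ITGB4 (-0.019) and ITGA1 (-0.19) with the correction for GC content and length, and for ITGA1 without SB replicate 1 (-0.21) and without 7-day replicate 2 (-0.13); with single libraries left out, ITGA1 lay between -0.21 and 0.39. None of these was called, and the cause was not tested. The replicate block crossed at 7 days newly called ITGB4 (0.29, adjusted p = 0.0444) and ITGA2 (-0.19, adjusted p = 0.0251) at 7 days relative to SB. The number of called members lay between 4 and 6 in both comparisons with SB and was 6 from 3 days to 7 days in every alternative. Counting error limits the precision of the genes with low counts, ITGA7 and ITGA11.

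Same-numbered libraries did not deviate together (r = 0.21 between SB and 3 days, -0.13 between SB and 7 days, -0.65 between 3 days and 7 days). At 3 days and 7 days they deviated in opposite directions, as did their differences along GC content (Spearman rho -0.74 and 0.73). These values do not show whether the numbers pair the samples. With the replicate block, 3943, 7546 and 4485 genes were called at 3 days and at 7 days relative to SB and from 3 days to 7 days, against 4170, 7851 and 4775 without it, and with the crossed replicate block 5404, 8763 and 5972. The replicate block without crossing changed no member's call.

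From 3 days to 7 days, 3042 genes were called with no filter and 3122 without the trend. With single libraries left out, 2609 (without 3-day replicate 1) to 3877 genes were called at 3 days, and from 3 days to 7 days 2810 without 3-day replicate 1, 2573 without 7-day replicate 1 and 2314 without 7-day replicate 2, with up to 5554 otherwise. Equal library totals moved the median of all genes at 3 days to -0.077, with 1819 genes called higher and 2552 lower against 2149 and 2021.

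Counts of called list genes moved as follows. At 3 days relative to SB, 3 hemidesmosome and tetraspanin genes were called with no filter and without the trend, against 6. For non-integrin receptors, against 3, the counts were 1 with no filter, 5 with equal totals, and 6 with the crossed block and with the GC correction. Collagen chains fell to 2 of 4 called with no filter and with equal totals. From 3 days to 7 days, the adhesion plaque count of 8 became 5 with no filter and without the trend and 13 with the GC correction. Non-integrin receptors became 2 of 4 with no filter and without the trend, other integrins 2 and 3 of 5 under the same settings, and collagen chains 2 of 5 with no filter. Laminin chains became 1 of 4 with no filter and without the trend, and 2 with equal totals and upper quartile scaling. With single libraries left out, the ranges from 3 days to 7 days were 2 to 5 for hemidesmosome and tetraspanin genes (2 without 7-day replicate 1), 4 to 10 for the adhesion plaque (4 without 7-day replicate 1, 5 without 3-day replicate 2), 3 to 5 for other integrins (3 without 3-day replicate 1 or 7-day replicate 1), 2 to 4 for laminin chains (2 without 3-day replicate 1 or either 7-day library) and 2 to 5 for collagen chains (2 without 3-day replicate 1 or 7-day replicate 1). They were 3 to 7 for laminin chains at 7 days relative to SB (3 without 7-day replicate 1). At 3 days they were 2 to 5 for non-integrin receptors (5 without SB replicate 2) and 2 to 4 for collagen chains (2 without SB replicate 1 or 3-day replicate 2).

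With the longest transcript as the length, the shares with SB, at 3 days and at 7 days were 86.1%, 79.4% and 90.2% for ITGA3, 13.4%, 20.4% and 9.51% for ITGA6, 0.483%, 0.263% and 0.247% for ITGA7, and 1.09%, 0.516% and 0.827% for ITGA1. At 3 days and 7 days they were 83.5% and 58.8% for ITGA2 and 15.8% and 39.6% for ITGA10. The collagen-binding share of all 7 α subunits was 36.0%, 35.4% and 24.1%.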
